A study of Caenorhabditis elegans with 6 samples.

Results

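The large molecular chaperones examined here were *hsp-1*, *hsp-110* and *daf-21* of the cytosol, *hsp-3*, *hsp-4* and *enpl-1* of the endoplasmic reticulum (ER), and *hsp-6* and *hsp-60* of the mitochondria. They were taken by name and matched to the sequence-name identifiers of the deposited tables through a WBcel235 gene table, which lists *daf-21* under the name *hsp-90*. All 8 genes were found among the 17682 genes listed, and all 8 passed the read filter that left 7333 genes for testing. The samples were whole *C. elegans* hermaphrodites, from which poly-A RNA was sequenced at the 3′ ends of transcripts. There were 3 libraries from worms fed bacteria that express double-stranded RNA against *unc-62*, a homeodomain transcription factor of the Homothorax family, and 3 libraries from worms fed empty vector bacteria (control RNAi). All worms of both treatments were of strain TJ1060, with the genotype fem-15(b26);spe-9(hc88), which is sterile at 25°C. Worms of each of the 3 batches were raised at 25°C to day 1 of adulthood, divided between both kinds of bacteria, kept for 3 days at 20°C and collected at day 4. RNAi was thus given to adults only and was not restricted to a tissue, and the controls shared the sterile background. For adult RNAi in general, the paper describes plates with the drug FUDR, ampicillin and IPTG, which would apply to both treatments.

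Chaperones bind unfolded or partly folded proteins and use ATP to release them in a form that can fold. HSP70 proteins act on short exposed stretches together with J-domain partners and nucleotide exchange factors, HSP90 proteins act later and on fewer clients, and HSP60 encloses clients in a ring-shaped chamber. Each compartment of the cell has its own members, and a loss of folding capacity in the cytosol, the ER or the mitochondria raises transcription of that compartment's chaperones through HSF-1, through IRE-1 and XBP-1, or through ATFS-1.

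Values are in RPM, the reads-per-million scale, with each library's uniquely mapped reads as its total, and were counted on the sense strand. A fold change is the log2 difference, *unc-62* RNAi over control RNAi, of RPM rescaled by TMM factors with 0.05 RPM added, from a limma fit over all 7333 genes with the replicate number as a block. A gene was called changed at an adjusted p (Benjamini-Hochberg) under 0.1. The totals of uniquely mapped reads, inferred from the deposited values, were 17124802 to 22868980 upon *unc-62* RNAi and 15188765 to 21463842 in controls. The 3 *unc-62* RNAi libraries were sequenced in 1 flow-cell lane and the 3 control libraries in another, so lane and treatment cannot be told apart.

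For *unc-62* itself, the worms on *unc-62* RNAi gave 17, 39 and 25 reads, and the control worms 27, 31 and 26. These counts overlapped, and the fold change of -0.28 was not called (limma, adjusted p = 0.739), so that the targeted transcript did not separate the treatments at this depth. Markers of the tissues of a whole worm were present, with all 8 intestine, all 8 body wall muscle and all 8 germline markers passing the filter, 5 of 8 hypodermis and cuticle markers, 4 of 8 neuron markers and 4 of 8 sperm markers. Among them only *dpy-5* and *rol-6*, which encode cuticle-forming proteins, were called, both lower upon *unc-62* RNAi, a call made for 0.818% of all tested genes. The summed RPM of the 8 intestine markers was 6682 to 8251 upon *unc-62* RNAi and 4084 to 5366 in controls, of which *mtl-2* and *asp-1* held the larger part while 3 of the 8 markers had changes below 0. That of the hypodermis and cuticle markers was 176 to 352 upon *unc-62* RNAi and 321 to 677 in controls, and that of the body wall muscle markers 424 to 613 upon *unc-62* RNAi and 350 to 906 in controls. Of the 8 muscle markers 7 had changes below 0, with a median of -0.41, and 3 had an unadjusted p under 0.05, though none was called (limma). All 5 tested hypodermis and cuticle markers were below 0, with a median of -2.64, as were all 4 tested sperm markers, with a median of -1.33. Each of these had an unadjusted p under 0.05 (limma). The median was 0.33 for the intestine markers, with 5 above 0, -0.28 for the neuron markers, with 1 above 0, and -0.002 for the germline markers, with 4 above 0. The sum over the neuron markers was 28.9 to 38.0 RPM upon *unc-62* RNAi and 21.2 to 45.03 RPM in controls. The germline markers summed to 1005 to 1291 RPM upon *unc-62* RNAi and 961 to 1058 RPM in controls, and the sperm markers to 54.1 to 111 RPM upon *unc-62* RNAi and 94.7 to 247 RPM in controls. The cuticle markers *bli-1* and *dpy-7* and the hypodermal marker *rnt-1* had at most 4 reads in any library. The part of tissue composition in the chaperone values below was not tested, and in whole worms fewer cells of a type and less RNA per cell cannot be told apart.

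None of the 8 chaperone genes was called changed upon *unc-62* RNAi, against 1.31% of all tested genes (limma, 96 of 7333). Higher calls made up 0.491% and lower calls 0.818% of all tested genes. No member had an unadjusted p under 0.05 either, a level reached by 13.4% of all tested genes, and none was called by edgeR with or without the block, by DESeq2 or by rank products, which called 2.48% of all tested genes at 10% false positives. The estimates ran from -0.43 for *hsp-110* to 0.52 for *hsp-6*, and each 95% interval included 0. The intervals differed widely, however. That of *daf-21* spanned -0.45 to 0.12 on the log2 scale, a fold of 0.734 to 1.09, whereas that of *hsp-4* spanned -1.47 to 1.25, a fold of 0.361 to 2.39. The data thus leave room for changes of more than 2-fold in *hsp-4*, *enpl-1*, *hsp-6* and *hsp-110*, and bound the change of *daf-21* much more closely.

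**Figure D1:**
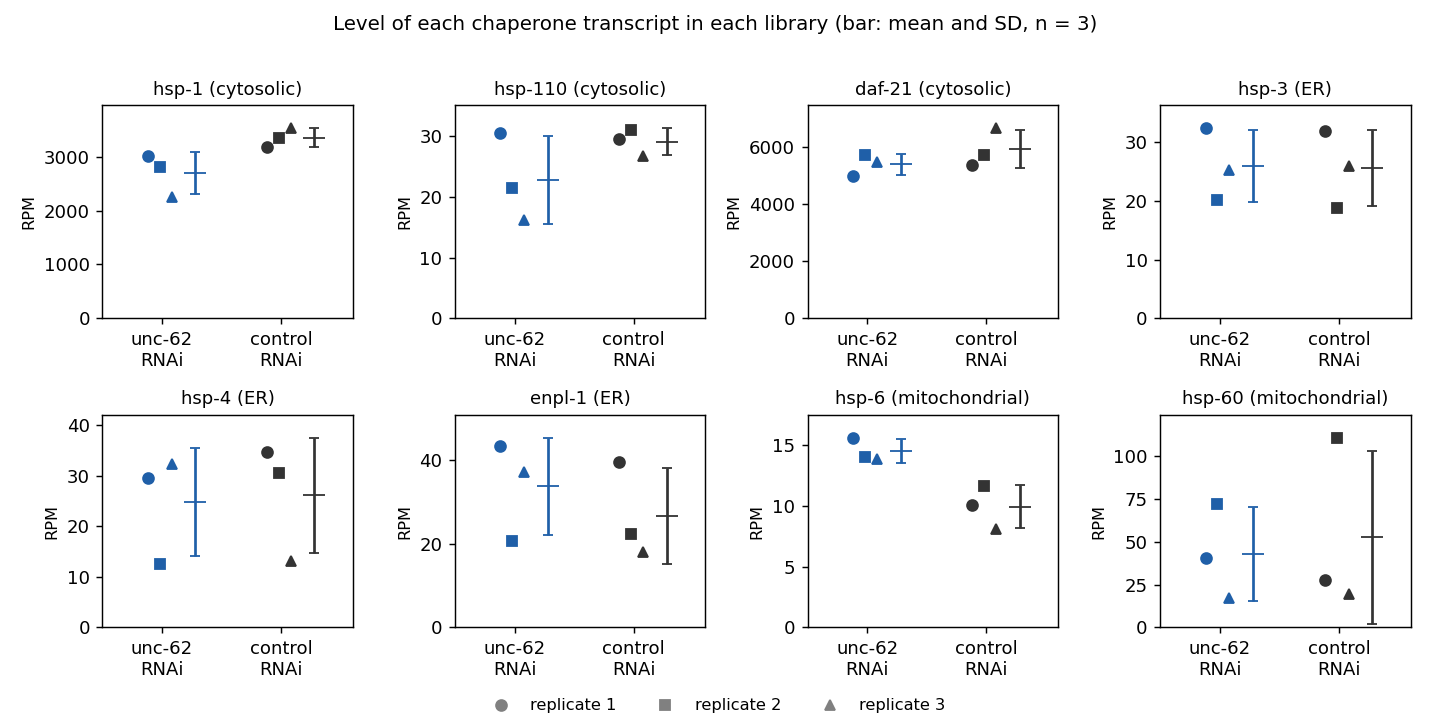
RPM of each of the 8 chaperone transcripts in each library (y axes start at 0 and differ between panels), with *unc-62* RNAi left of control RNAi, the replicate given by the symbol, and the mean ± SD of 3 libraries beside the points. The groups were apart only for *hsp-6*, at 13.9 to 15.6 RPM upon *unc-62* RNAi against 8.15 to 11.6 RPM in controls, and for *hsp-1*, at 2257 to 3027 RPM against 3191 to 3535 RPM.

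The cytosolic genes held by far the largest share of the chaperone reads. *daf-21*, the HSP90 of the cytosol, gave 4989, 5723 and 5467 RPM in the *unc-62* RNAi libraries and 5382, 5713 and 6651 RPM in the control libraries. Replicate 3 of the controls was the highest, and the groups overlapped, since replicates 2 and 3 of the *unc-62* RNAi worms both exceeded at least 1 control library. The means were 5393 ± 372 RPM upon *unc-62* RNAi and 5915 ± 659 RPM in controls (SD, n = 3 each). The fold change of -0.16 ± 0.11 (SE) was not called (limma, adjusted p = 0.647), although it was below 0 within each replicate, at -0.14, -0.08 and -0.26.

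*hsp-1* encodes the constitutive HSP70 (HSC70) of the cytosol and nucleus. It stood at 3027, 2821 and 2257 RPM in *unc-62* RNAi worms and at 3191, 3359 and 3535 RPM in controls. Every *unc-62* RNAi library was below every control library, an arrangement found for 6.93% of all tested genes. The separation was narrow, since the highest *unc-62* RNAi value and the lowest control value both came from replicate 1. After TMM scaling the values were 2612, 2891 and 2469 RPM upon *unc-62* RNAi and 2810, 3654 and 3815 RPM in controls, and the groups overlapped (8.40% of all genes were separated downwards on that scale). This overlap on scaled values was examined after the data had been seen. The means were 2702 ± 398 RPM upon *unc-62* RNAi and 3362 ± 172 RPM in controls (SD, n = 3 each), and the fold change of -0.36 ± 0.15 (SE) had an adjusted p of 0.416 (limma, Benjamini-Hochberg). Within replicates it was -0.11, -0.34 and -0.63, so the size of the difference varied several-fold between replicate numbers. An annotated gene, F26D10.24, overlaps *hsp-1* on the same strand, and reads from it could be counted with *hsp-1*.

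*hsp-110* encodes an HSP110, a relative of HSP70 that serves as its nucleotide exchange factor and helps to dissolve aggregates. Its level was 30.5, 21.5 and 16.2 RPM upon *unc-62* RNAi and 29.6, 31.1 and 26.7 RPM in controls. The *unc-62* RNAi libraries of replicates 2 and 3 lay below all controls, while that of replicate 1 lay within them. The fold change was -0.43 ± 0.24 (SE), with 0.02, -0.62 and -0.71 within the replicates, and was not called (limma, adjusted p = 0.551). The *unc-62* RNAi libraries, at 22.7 ± 7.27 RPM, were also more scattered than the control libraries, at 29.1 ± 2.21 RPM (SD, n = 3 each).

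All 3 cytosolic estimates were thus below 0, with a median of -0.36 beside a median of 0.03 over all tested genes (SD over genes 0.67). Both *hsp-1* and *daf-21* were lower within all 3 replicates, which held for 20.4% of all tested genes. The summed level of the 3 genes was 8046, 8565 and 7740 RPM in the *unc-62* RNAi libraries, or 0.805%, 0.857% and 0.774% of uniquely mapped reads, and 8602, 9104 and 10213 RPM in the control libraries, or 0.860%, 0.910% and 1.02%. Each *unc-62* RNAi sum was below each control sum, by a narrow margin, and this too was lost on TMM-scaled values, at 6943, 8779 and 8467 RPM against 7576, 9901 and 11022 RPM in controls. *hsp-1* and *hsp-110* varied together over the 6 libraries (Pearson r = 0.78 on scaled log2 RPM), as did *hsp-1* and *daf-21* (r = 0.68), whereas *hsp-110* and *daf-21* did not (r = 0.08). These r values describe 6 libraries that share treatment and scaling, and carry no test.

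**Figure D2:**
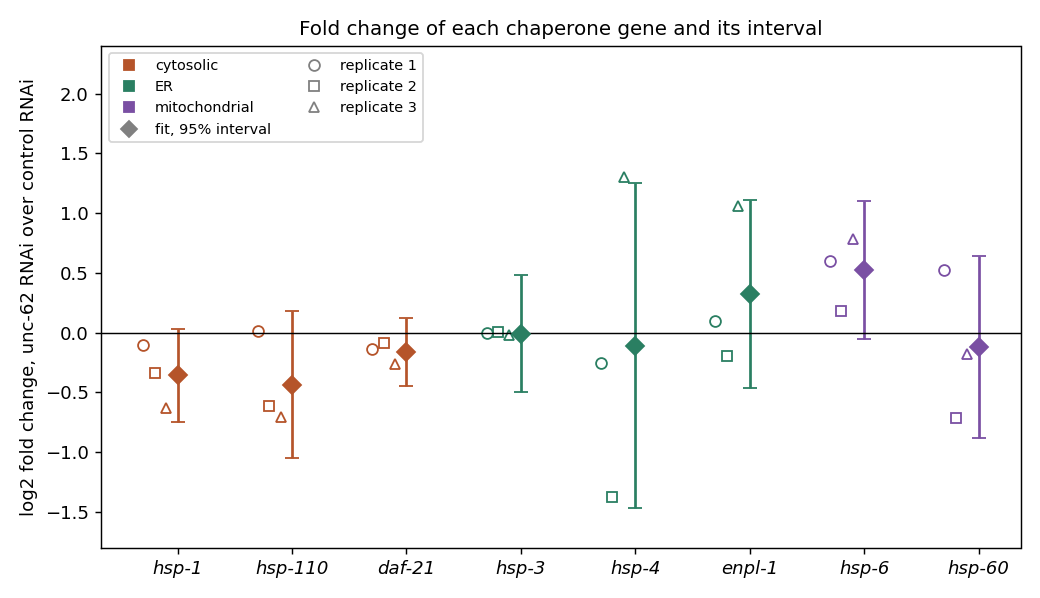
Log2 fold change of each chaperone gene, *unc-62* RNAi over control RNAi, with its 95% interval from the limma fit (diamond and bar) and the change within each replicate (open symbols), coloured by compartment. All 8 intervals cross 0, the 3 cytosolic estimates lie below 0, and the interval of *hsp-4* is the widest, at -1.47 to 1.25.

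The ER genes had far lower RPM than *daf-21* and *hsp-1* and showed 3 different patterns. *hsp-3* encodes a constitutive BiP, the HSP70 of the ER lumen. It had 32.4, 20.1 and 25.2 RPM upon *unc-62* RNAi and 31.9, 18.9 and 26.0 RPM in controls. The values followed the replicate number closely, with replicate 1 high and replicate 2 low in both treatments. Within replicates the changes were -0.01, 0.01 and -0.02, the fitted change was -0.01 ± 0.19 (SE), and the 95% interval of -0.50 to 0.48 excludes a 2-fold change in either direction at that level of confidence. *hsp-3* was not called (limma, adjusted p = 0.991).

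*hsp-4* encodes the second BiP, which is induced through IRE-1 and XBP-1 when unfolded proteins gather in the ER. Its level was 29.6, 12.5 and 32.3 RPM in the *unc-62* RNAi libraries and 34.7, 30.6 and 13.2 RPM in the control libraries. One library of each treatment was low, replicate 2 for *unc-62* RNAi and replicate 3 for the control, and the other 4 libraries lay between 29.6 and 34.7 RPM. These low libraries were supported by 286 and 284 reads, against 507 to 598 reads in the other 4, so that the difference was far beyond counting error: the variance of the reads was 102 times that expected from counting alone upon *unc-62* RNAi and 99.4 times in controls. Changes within replicates accordingly ran in opposite directions, at -0.26, -1.37 and 1.30, and the fitted change was -0.11 ± 0.53 (SE; limma, adjusted p = 0.961). Without replicate 3, *hsp-4* was called lower upon *unc-62* RNAi, at -0.79 (limma, adjusted p = 0.018), in a fit that called 9.35% of all tested genes lower. Without replicate 2 the estimate was 0.52 and was not called. The direction for *hsp-4* was therefore set by which replicate number was left out.

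*enpl-1* encodes the HSP90 of the ER (GRP94 or endoplasmin), which folds a small set of secreted and membrane proteins. Its values of 43.3, 20.7 and 37.1 RPM upon *unc-62* RNAi overlapped those of 39.6, 22.3 and 18.1 RPM in controls. Replicates 1 and 2 were alike in both treatments, and replicate 3 was about as high as replicate 1 upon *unc-62* RNAi but low in the control. The changes within replicates were 0.10, -0.19 and 1.06, and the fitted change of 0.32 ± 0.31 (SE) was not called (limma, adjusted p = 0.729). In the annotation *spo-11* overlaps *enpl-1*, and C47E8.4 overlaps *daf-21*, each on the opposite strand, which counting on the sense strand keeps apart.

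The low control value of *enpl-1* in replicate 3 and its low *unc-62* RNAi value in replicate 2 fell in the same libraries as the low values of *hsp-4*. However, *enpl-1* was also low in replicate 2 of the control, at 22.3 RPM, where *hsp-4* stood at 30.6 RPM. Over the 6 libraries *hsp-4* correlated with *enpl-1* at r = 0.76, but with the other BiP gene, *hsp-3*, at only 0.20. The level of *hsp-4* was 91.4%, 62.2% and 128% of that of *hsp-3* in the *unc-62* RNAi libraries and 109%, 162% and 50.9% in the control libraries, ratios that no scaling of a library can alter and that overlapped between treatments. The 3 ER genes summed to 105, 53.3 and 94.7 RPM upon *unc-62* RNAi and to 106, 71.8 and 57.3 RPM in controls, with overlapping groups and a median fold change of -0.01.

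**Figure D3:**
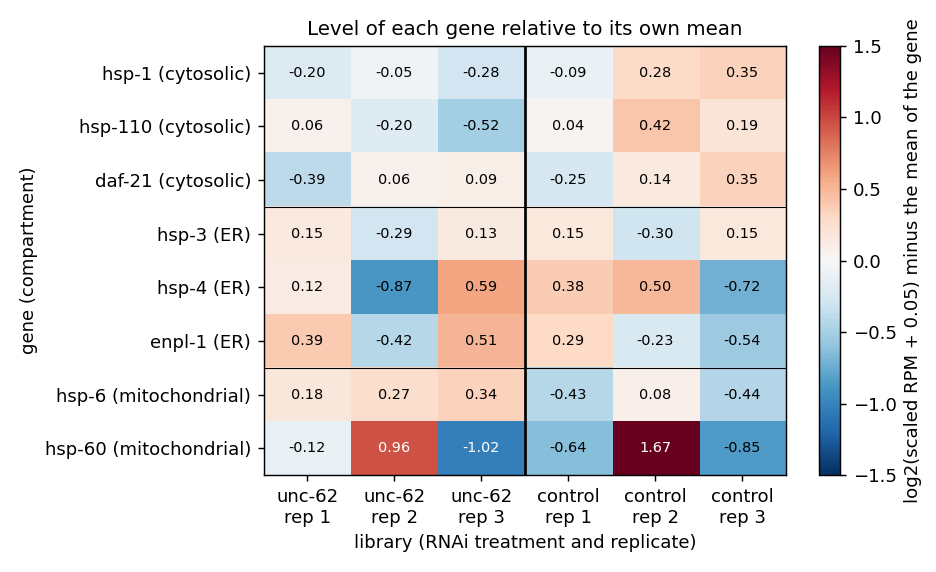
Level of each chaperone gene (rows, by compartment) in each library (columns, *unc-62* RNAi left of control RNAi) as log2 of TMM-scaled RPM plus 0.05, minus the mean of that gene. *hsp-4* is low in replicate 2 upon *unc-62* RNAi (-0.87) and in replicate 3 of the control (-0.72), and *hsp-60* is high in replicate 2 of both treatments (0.96 and 1.67).

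The 2 mitochondrial chaperones differed from each other. *hsp-6* encodes the mitochondrial HSP70 (mortalin), which draws imported proteins into the matrix and folds them there. It had 15.6, 14.04 and 13.9 RPM upon *unc-62* RNAi and 10.1, 11.6 and 8.15 RPM in controls, based on 257 to 321 reads upon *unc-62* RNAi and 153 to 199 reads in controls. Every *unc-62* RNAi library lay above every control library, as it did for 6.44% of all tested genes, and the groups were also apart on TMM-scaled values, at 13.5, 14.4 and 15.2 RPM against 8.87, 12.7 and 8.80 RPM in controls (6.89% of all genes were separated upwards on that scale). The means were 14.5 ± 0.976 RPM upon *unc-62* RNAi and 9.95 ± 1.74 RPM in controls (SD, n = 3 each), a ratio of 1.46. *hsp-6* was higher within each replicate, at 0.60, 0.18 and 0.78, which was true of 15.8% of all tested genes. The fitted change of 0.52 ± 0.22 (SE) did not pass the test (limma, adjusted p = 0.420), and its 95% interval ran from -0.05 to 1.10.

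Among the 8 genes, the ratio of the variance of reads to that from counting alone was smallest for *hsp-6* in the *unc-62* RNAi libraries. In the controls the ratio was smallest for *hsp-110*, at 3.28, though its SD was 7.60% of its mean there. For *hsp-6* the variance of its reads over the 3 *unc-62* RNAi libraries was 1.19 times that expected from counting alone, and 5.97 times over the controls, against medians of 7.34 and 5.16 over all tested genes. For the abundant *daf-21* and *hsp-1* the corresponding ratios were 490 and 1070 upon *unc-62* RNAi and 1361 and 157 in controls, far more than counting error. This ratio rises with the number of reads for a given relative scatter, so it does not rank genes of unlike level. The SD was 6.72% of the mean for *hsp-6*, 6.91% for *daf-21* and 14.7% for *hsp-1* upon *unc-62* RNAi. In controls it was 17.5% for *hsp-6*, 11.1% for *daf-21* and 5.11% for *hsp-1*.

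*hsp-60* encodes the mitochondrial chaperonin, and with *hsp-6* it is widely used to report the mitochondrial unfolded protein response. Its level was 40.5, 71.9 and 17.02 RPM in the *unc-62* RNAi libraries and 27.5, 111 and 19.5 RPM in the control libraries. Replicate 2 was highest and replicate 3 lowest in both treatments, and the ratio of the highest to the lowest of the 6 libraries, 6.52, was the largest among the 8 genes. The means of 43.1 ± 27.5 RPM upon *unc-62* RNAi and 52.7 ± 50.7 RPM in controls (SD, n = 3 each) differed by less than this spread. Within replicates the changes were 0.53, -0.71 and -0.18, and the fitted change was -0.12 ± 0.30 (SE; limma, adjusted p = 0.902).

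The high values of replicate 2 were found in all the transcripts listed for *hsp-60*. Transcript b.1, which had the highest mean and stands for the gene here, was accompanied by transcript a.2 at 7.18, 58.3 and 5.40 RPM upon *unc-62* RNAi and at 12.9, 99.5 and 6.85 RPM in controls. Transcript a.2 was thus lower upon *unc-62* RNAi within each replicate, as were a.1 and b.2, whereas b.1 was higher in replicate 1. The direction of *hsp-60* in replicate 1 therefore depended on the transcript taken. With all listed transcripts summed its fitted change was -0.41, not called (limma, adjusted p = 0.568). The level listed for a.2 was 81.1% of that for b.1 in replicate 2 upon *unc-62* RNAi and 89.7% in replicate 2 of the controls, but 17.7% to 46.9% in the other 4 libraries. Within each replicate the share was lower upon *unc-62* RNAi, at 17.7% against 46.9% in the control, 81.1% against 89.7% and 31.7% against 35.1%. Replicate 2 thus stood apart in both treatments, and the difference between treatments within a replicate was not tested. The same read can be listed for more than one transcript of a gene, and which reads are shared was not determined.

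**Figure D4:**
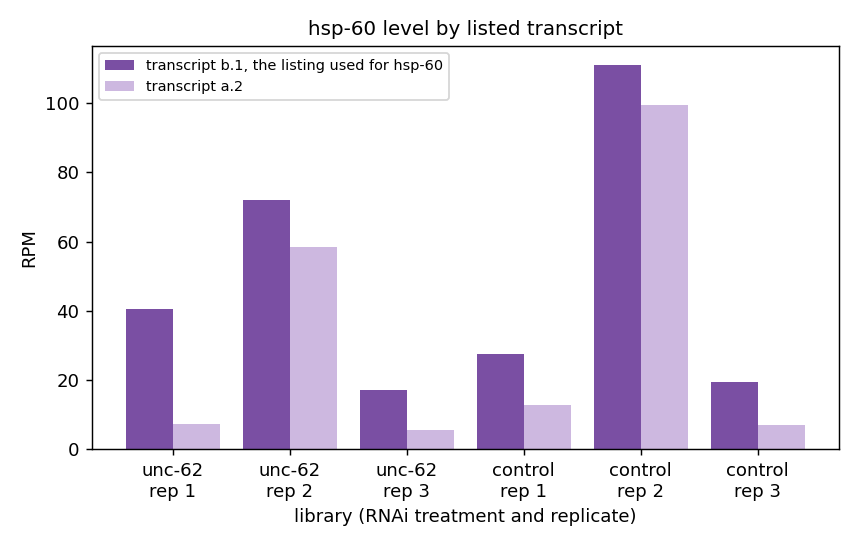
RPM listed for the *hsp-60* transcripts b.1 (dark bars) and a.2 (light bars) in each library, with *unc-62* RNAi left of control RNAi. In replicate 2 of both treatments a.2 reached 58.3 and 99.5 RPM, close to b.1, whereas in the other 4 libraries it was at 5.40 to 12.9 RPM, below the level of b.1.

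The mitochondrial genes summed to 56.2, 85.9 and 30.9 RPM upon *unc-62* RNAi and to 37.6, 123 and 27.7 RPM in controls, a pattern dominated by *hsp-60*. *hsp-6* and *hsp-60* correlated at r = 0.35 over the 6 libraries. *hsp-60* amounted to 259%, 512% and 123% of *hsp-6* in *unc-62* RNAi worms and to 273%, 954% and 239% of it in controls, and the ratio was lower upon *unc-62* RNAi within each replicate.

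Between compartments, the cytosolic genes had the lowest median fold change and the mitochondrial genes the highest, at -0.36, -0.01 and 0.20 for cytosol, ER and mitochondria. The mitochondrial median is the midpoint of *hsp-6* and *hsp-60*, whose estimates had opposite signs. Summed levels gave another order. The log2 ratios of mean summed TMM-scaled RPM were -0.24 for the cytosol, -0.20 for the mitochondria and 0.09 for the ER. Without TMM scaling they were -0.20 for the cytosol, -0.12 for the mitochondria and 0.11 for the ER. The difference of mitochondrial from cytosolic medians was 0.67, 0.07 and 0.93 within the replicates, and that of ER from cytosolic medians was 0.10, 0.15 and 1.68. Both were above 0 in each of the 3 replicates, but their sizes differed by more than 10-fold between replicates, and with 2 or 3 genes a compartment they are given as a description. The mitochondrial median exceeded the ER median in replicate 1 only, by 0.57, and was below it in replicates 2 and 3, at -0.07 and -0.75.

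Ratios within a library remove every difference of scaling. *hsp-6* stood at 0.517%, 0.498% and 0.615% of *hsp-1* in the *unc-62* RNAi libraries and at 0.316%, 0.346% and 0.231% in the control libraries. These values did not overlap, but the pair was chosen after the levels of both genes had been seen, and so it adds nothing independent to the values above. The summed ER genes were 1.31%, 0.622% and 1.22% of the summed cytosolic genes upon *unc-62* RNAi and 1.23%, 0.788% and 0.561% in controls, and the summed mitochondrial genes 0.698%, 1.00% and 0.399% upon *unc-62* RNAi and 0.437%, 1.35% and 0.271% in controls. Both of these overlapped.

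Per kilobase of the longest annotated transcript, and averaged over the 6 libraries, *daf-21* reached 2397 RPM and *hsp-1* 1462 RPM. *hsp-60* followed at 22.6 RPM per kilobase, *hsp-4* and *enpl-1* both at 11.4, *hsp-3* at 9.66, *hsp-110* at 9.60 and *hsp-6* at 4.98. *daf-21* and *hsp-1* stood clear of the rest in every library. *hsp-4*, *enpl-1*, *hsp-3* and *hsp-110* were closer to each other than the spread of each between libraries, and the range of *hsp-60* overlapped theirs, so the order of these 5 genes is not resolved. *hsp-6* was lowest on average only. In replicate 2 upon *unc-62* RNAi it exceeded *hsp-4*, at 14.04 against 12.5 RPM. Because only 3′ ends were sequenced, a longer transcript need not yield more reads. Without the division by length *daf-21*, *hsp-1* and *hsp-60* again had the highest RPM and *hsp-6* the lowest. The RPM of a gene also depended on the transcript taken. For *hsp-60* in replicate 1 upon *unc-62* RNAi, transcript b.1 was listed at 40.5 RPM and b.2 at 6.37 RPM. These orders are therefore of listed reads, and how far they follow transcript abundance was not tested.

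The partner genes of each compartment were then read in the same fit, from lists that were chosen with earlier results of these data known. Of 33 cytosolic folding partners (HSF-1 and its binding partners, J-domain proteins, HSP90 co-chaperones, the CCT chaperonin and prefoldin), 31 were tested. None was called by limma in either direction, 1 had an unadjusted p under 0.05, and the median fold change was -0.06, with 10 higher and 21 lower. The lowest was *ddl-2*, which encodes a part of the complex that binds HSF-1, at 1.46, 1.36 and 0.865 RPM upon *unc-62* RNAi and 3.62, 2.16 and 2.70 RPM in controls. Its groups were apart, as were those of 6.93% of all tested genes in that direction. The change of -1.21 was not called (limma, adjusted p = 0.151), and the values rest on 16 to 58 reads. The highest estimate was that of *unc-23*, a BAG-family co-chaperone of HSP-1, at 10, 14 and 12 reads upon *unc-62* RNAi and 6, 9 and 0 reads in controls. These counts are too few for a fold, and the gene was not called (limma, adjusted p = 0.559).

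Of 27 genes of ER folding and the ER unfolded protein response, 23 were tested and none was called by limma. An unadjusted p under 0.05 was seen for 2, and the median was 0.06, with 15 higher and 8 lower. *xbp-1*, which encodes the transcription factor that IRE-1 activates by splicing, had the lowest fold change. It was at 26.6, 72.4 and 22.8 RPM in the *unc-62* RNAi libraries and at 58.1, 97.7 and 54.6 RPM in the control libraries. Replicate 2 was high in both treatments, and within each replicate the *unc-62* RNAi value was the lower, by -1.16, -0.52 and -1.24. The fitted change of -0.97 ± 0.23 (SE) was not called (limma, adjusted p = 0.181). At the other end, the disulphide isomerase gene *pdi-6* had a change of 0.64 (limma, adjusted p = 0.636), which came from replicate 3 alone, at 47.9 RPM upon *unc-62* RNAi against 13.8 RPM in the control, whereas replicates 1 and 2 changed by 0.03 and 0.08.

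Of 22 genes of mitochondrial import, folding, proteolysis and the mitochondrial unfolded protein response, 19 were tested and none was called by limma. An unadjusted p under 0.05 was again seen for 2, and the median was 0.05, with 11 higher and 8 lower. *tomm-22*, which encodes a receptor of the outer membrane import pore, had the highest change, 0.75, with 3.62, 1.88 and 1.73 RPM upon *unc-62* RNAi and 2.30, 0.819 and 1.16 RPM in controls (limma, adjusted p = 0.251). *spg-7*, the gene of an inner membrane AAA protease, had the lowest, -0.86, with 2.63, 1.97 and 3.35 RPM upon *unc-62* RNAi and 6.58, 4.09 and 3.68 RPM in controls (limma, adjusted p = 0.328). *atfs-1*, which encodes the transcription factor of the mitochondrial response and was picked out after its values were seen, changed by -0.01. The untested genes *hsp-70* (at most 3 reads in any library), *pek-1*, *atf-6*, *pph-5*, *ckb-2* and *dve-1* had too few reads for the filter.

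**Figure D5:**
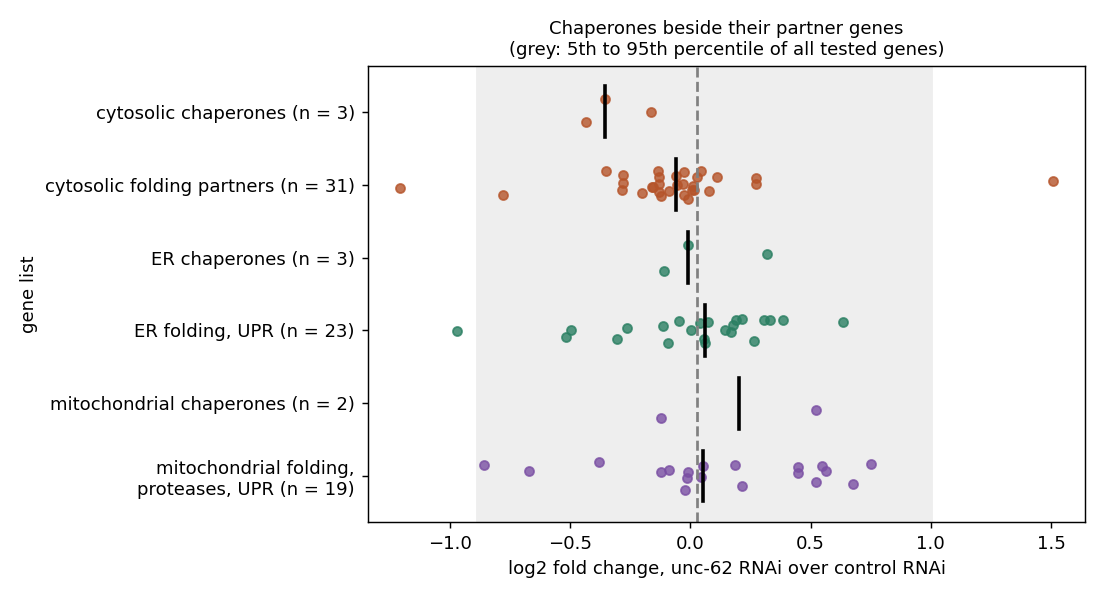
Log2 fold changes, *unc-62* RNAi over control RNAi, of the chaperones and of the tested partner genes of each compartment (points; black line, median of the list; dashed line, median of all tested genes; grey, 5th to 95th percentile of all tested genes, -0.89 to 1.01; UPR, unfolded protein response). All 8 chaperones lie inside the grey range, as do all partner genes except *ddl-2* and *xbp-1* below it and *unc-23* above it.

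The genes whose scaled log2 RPM followed the mean of a compartment's members most closely over the 6 libraries were different for each compartment. For the cytosolic genes they were R12E2.7, *msp-31* and *col-107* (r = 0.99 each), which had changes of -2.50, -1.30 and -1.95 upon *unc-62* RNAi, none of them called (limma, adjusted p = 0.191, 0.182 and 0.188). For the ER genes they were *copa-1*, *evl-14* and Y56A3A.22 (r = 0.99, 0.98 and 0.97), and for the mitochondrial genes *wdr-5.3*, *pqn-92* and *agt-2* (r = 1.00, 0.99 and 0.99). The ER and mitochondrial companions had changes of 0.06 to 0.52, and none was called. These genes were selected for their r, which is given only as a description.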

How the data were processed

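Whole-worm RNA from 3 *unc-62* RNAi and 3 control RNAi samples was analysed. The deposited values are a signal in RPM (the reads-per-million scale), made by the authors from reads called with CASAVA 1.7.0, aligned with Bowtie 0.12.7 and counted per transcript on the sense strand. The total of uniquely mapped reads of each library was inferred by taking its smallest positive value as a single read. Multiplying by this total returned whole reads for 100.0% of 153186 values (tolerance 0.01). The read counts are thus recovered on that assumption, and the totals were not checked independently. The transcript with the highest mean stood for each gene, and genes with at least 10 reads in all 3 libraries of either treatment were kept. TMM factors came from edgeR 4.0.16 and the test was limma 3.58.1 with trend (R 4.3.3) on log2(RPM + 0.05), with Benjamini-Hochberg adjustment over 7333 genes; a fold change on this scale understates that of low genes. edgeR and DESeq2 1.42.0 on the recovered reads, rank products, other scalings, pseudocounts and filters, and leaving out each replicate were alternatives. The limma, edgeR and DESeq2 fits with all libraries were tested on simulated data. Those data held changes larger than any fitted for the chaperones and no replicate effect. They therefore do not show how well changes of the size seen here are found. Transcript lengths and overlaps were read from Ensembl release 115 (WBcel235), a later annotation than that of the files, so no coordinates are given. The genes named are the 8 chaperones, *unc-62*, the called genes and the highest and lowest gene of each partner list, and the 3 genes closest to each compartment; others are named as chosen later. Members, lists and markers were chosen with earlier results of these data known. Intervals cover the spread between 3 batches only.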

Additional observations from a re-analysis of the deposited data

How the results depend on the processing

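None of the 8 chaperone genes was called under any alternative with all 6 libraries. The only call was *hsp-4* without replicate 3, so the number of ER genes called was 0 to 1 when single replicates were left out. Of the fold changes of the 8 genes under the alternatives, 97 kept their direction and side of the threshold and 6 changed sign. That of *hsp-3* was 0.0241 on deposited RPM without scaling, and with single replicates left out the ranges were -0.0141 to 0.025 for *hsp-3*, -0.79 to 0.52 for *hsp-4*, -0.0218 to 0.58 for *enpl-1* and -0.43 to 0.18 for *hsp-60*. The log2 ratio of the summed TMM-scaled mitochondrial RPM was -0.20 with all libraries and ranged from -0.42 to 0.39 in the same way. It was -0.59 when all listed transcripts of a gene were summed, where the mitochondrial median was 0.05 in place of 0.20. The background moved far more: 255 genes were called without the read filter (94 higher, 161 lower), 294 by DESeq2 (102 higher, 192 lower), 182 by rank products (67 higher, 115 lower), and 0 to 1097 (0 to 411 higher, 0 to 686 lower) with single replicates left out. The count of 0 arose without replicate 1 and without replicate 2, where limma gave 518 and 580 genes with an unadjusted p under 0.05, and the cause was not tested. The labels describe 3 batches divided between the treatments but do not state that equal numbers mark a batch. Same-numbered libraries deviated together in only 2 of 3 pairs (correlations 0.42, 0.20 and -0.18). Pairs of unlike number had correlations of -0.50 to 0.26, the highest for replicate 2 upon *unc-62* RNAi with replicate 3 of the control. Changes given within a replicate rest on this pairing. Without the replicate block 132 genes were called (56 higher, 76 lower), and no chaperone. With 3 libraries a treatment, the 95% intervals of *hsp-4*, *enpl-1*, *hsp-6* and *hsp-110* include 2-fold changes, so such changes are not excluded for these genes. For *hsp-60* the interval of -0.88 to 0.64 holds for transcript b.1 only. Its estimate was -0.41 with all listed transcripts summed, so no bound is drawn for the gene.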

Other observations

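Some genes of the partner lists shared the profile of *hsp-4*, an observation made after the values were seen. Of the 23 tested genes of ER folding and its unfolded protein response, 3 correlated with *hsp-4* above 0.8 over the 6 libraries, namely *pdi-1* (r = 0.93), which encodes a disulphide isomerase, *sec-61.B* (r = 0.87), which encodes a subunit of the translocation channel, and *stc-1* (r = 0.84), which encodes an HSP70-like protein. Of all 7332 tested genes other than *hsp-4*, 4.64% were above 0.8, as were 1 of 19 genes on the mitochondrial list, *lin-65* (r = 0.92), and 0 of 31 on the cytosolic list. The median r was 0.24 on both the ER and the mitochondrial list, against 0.03 over all tested genes, so the profile is not shown to be particular to ER folding. *pdi-1* was at 20.7, 8.48 and 18.1 RPM upon *unc-62* RNAi and at 16.4, 14.8 and 7.08 RPM in controls. *stc-1* was at 4.03, 2.27 and 5.46 RPM upon *unc-62* RNAi and at 3.29, 3.57 and 1.77 RPM in controls. Both were lowest in the libraries in which *hsp-4* was low, replicate 2 upon *unc-62* RNAi and replicate 3 of the control. *xbp-1* did not share this profile, being highest in replicate 2 of both treatments. Correlations over 6 libraries that share treatment and scaling are a description.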
